A study of Mus musculus with 17 samples.

Results

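T helper 2 (Th2) cells of the lymph node were compared between 2 mouse lines, a Gata3-YFP reporter line (labelled GATIR) and the OTII line. Each line gave 3 RNA libraries labelled wild type (WT), 6 of the 17 libraries of the series. Genes entered if both kinds of deposited table listed the same transcript for them and if RPKM (a library's reads per kilobase of a transcript, corrected for sequencing depth) was at least 1 in at least 3 of the 6 libraries. That kept 10106 of the 24537 genes listed. Another 1644 genes were listed under another transcript and were left out, and 674 of those would have met the RPKM minimum.

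The reporter libraries hold cells of the mediastinal node, which drains the lung, from mice that carry a yellow fluorescent protein marking Gata3 expression. The OTII wild type libraries hold cells of the same node from mice whose CD4 T cells carry a transgenic receptor for an ovalbumin peptide. All of these mice had airway inflammation driven by allergen, and the RNA was read with the Smart-seq2 protocol. The column headers of the OTII tables name OVA-HDM and those of the reporter tables name no allergen. Cells were sorted by antibodies and YFP. The labels do not give the full gate of each line, how old the mice were or whether replicates came from separate animals. The mouse line, the model, the use of YFP in the sort and the set of tables differ together. Their parts in any difference cannot be told apart, and p-values measure only the spread between these libraries.

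Th2 cells are CD4 T cells that express the transcription factor Gata3 and secrete interleukins 4, 5 and 13, which drive eosinophils, mucus and IgE in the allergic airway. They arise in the lymph node from naive cells, whose state depends on factors such as Tcf7 and Lef1, and they leave it for the lung along a sphingosine 1-phosphate gradient. Group 2 innate lymphoid cells (ILC2) and basophils share the type 2 cytokine genes with them but lack a rearranged T cell receptor.

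Read totals were 16.3 to 17.5 M (mega) reads in the reporter libraries and 18.9 to 22.7 M reads in the OTII libraries. Genes listed at 0 numbered 12177 to 12982 in the reporter libraries and 9643 to 10128 in the OTII libraries. Log2 values correlated at r = 0.932 to 0.957 among reporter libraries, at 0.989 to 0.992 among OTII libraries and at 0.762 to 0.768 between the lines (a measure over genes, and genes are not replicates of a condition). The standard deviation (SD) of log2 values was larger in the reporter group in 86.6% of genes, with a median of 0.33 against 0.11. Y-linked Ddx3y, Eif2s3y, Kdm5d and Uty summed to 64.1 scaled RPKM in reporter replicate 2 and were listed at 0 in the other 5 libraries. The labels give no sex.

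T cell markers were high in both groups. Of 9 tested markers, 5 were higher and 3 lower in the reporter (median log2 fold change 0.47), where 24.6% of all genes tested were higher and 33.2% lower. Their sum was 3476 to 4046 in the reporter libraries and 3040 to 3298 in the OTII libraries. These and all values below are RPKM scaled by 1 factor per library, unless stated. Cd4 stood at 438, 626 and 586 in the reporter libraries and at 424, 364 and 391 in the OTII libraries, and the groups did not overlap, but the call was lost without any 1 of reporter replicates 2 and 3 and OTII replicates 2 and 3 (adjusted p = 0.0730, 0.0754, 0.0776 and 0.0623). Thy1, a surface glycoprotein of T cells, had the widest gap of the 9, at 78.6, 89.4 and 82.5 against 596, 646 and 562 (log2 fold change -2.83, SE 0.09). Genes of the T cell receptor chains themselves were not analysed here.

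Markers of other cells were present at unequal levels. The ILC2 list (Nmur1, Calca, Kit, Il1rl1, Rora, Klrg1 and Arg1) summed to 460 to 734 in the reporter libraries and to 3.06 to 4.99 in the OTII libraries, and all 6 tested members were higher in the reporter (median log2 fold change 5.21). Il1rl1, Rora and Klrg1 of this list are also in the Th2, Th17 and cytotoxic lists below. The basophil and mast cell list summed to 664 to 1060 against 5.45 to 9.55, with all 4 tested members higher (Mcpt8, Hdc, Cyp11a1 and Cd200r3, median 6.16). Its defining members Fcer1a, Ms4a2 and Prss34 were listed at 0 in all 6 libraries, and Gata2 was at 0 in the 3 reporter libraries. In bulk RNA, more cells of a type and more RNA of these genes per cell cannot be told apart.

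Markers of antigen-presenting cells had smaller sums. The MHC class II genes, which present peptide to CD4 T cells, summed to 221, 388 and 536 in the reporter libraries and to 143 to 169 in the OTII libraries, with 4 of 6 tested members higher. The B cell list summed to 38.2 to 68.2 against 14.9 to 18.3, with all 4 tested members higher, and 3 were higher without OTII replicate 1 or 2. The macrophage list summed to 15.2 to 55.2 against 6.06 to 7.73. Of its 2 tested members Cd68 was higher and Lyz2 did not pass. Without reporter replicate 1 Lyz2 was higher (log2 fold change 2.91, adjusted p = 0.00253). The other 11 members were below the RPKM minimum, and among them Adgre1, Fcgr1, Mrc1 and Cd14 were at 0 in all reporter libraries. Cd8b1, a chain of the CD8 receptor, was the tested member of the CD8 and NK list and was higher (1.40). Of the plasma cell list Prdm1 was higher and Mzb1 did not pass, of the dendritic cell list Xcr1 was higher and Batf3 lower, and of the stroma list Pecam1 was lower. No member of the neutrophil and eosinophil, red cell and platelet, or gamma delta T cell lists was tested. The part of these cells in the results below was not tested.

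**Figure D1:**
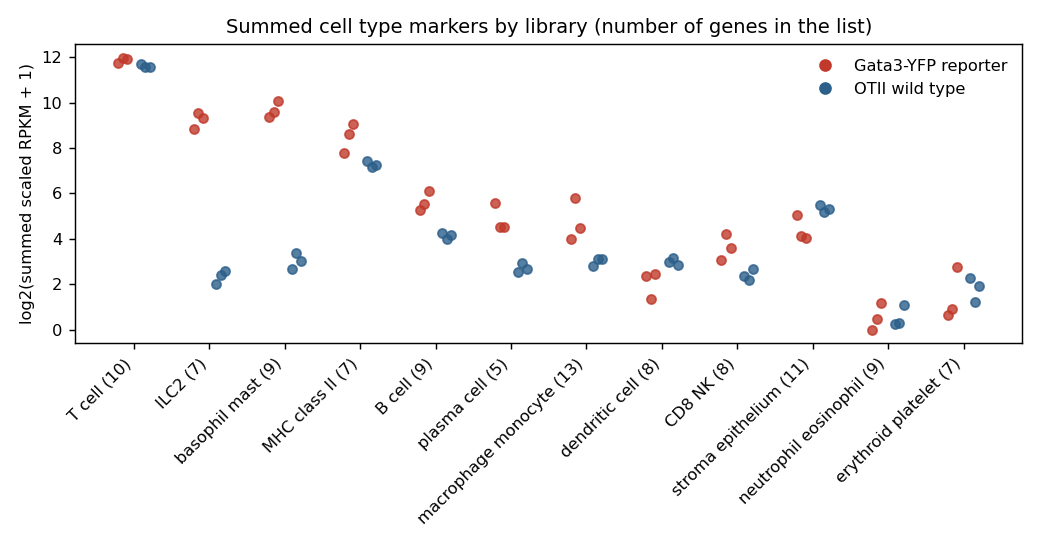
Summed scaled RPKM of cell type marker lists in each lymph node library, on the log2(sum + 1) scale, with the number of genes in each list in brackets (members listed under another transcript are not in the sums). Red points are the 3 reporter libraries and blue points the 3 OTII wild type libraries. T cell markers were near 3476 to 4046 and 3040 to 3298, while the ILC2 and basophil lists separate the lines most.

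The comparison asks which genes differ between node Th2 cells of the Gata3 reporter line and of the OTII line. Of the lists of genes tested, 13 of 21 Th2 genes and 14 of 17 regulatory T cell genes were higher in the reporter libraries. Lower were 11 of 15 genes of naive and memory cells, 10 of 14 of the follicular helper program and 23 of 24 ribosomal protein genes. With limma on log2(scaled RPKM + 1), 5837 of 10106 genes (57.8%) passed an adjusted p of 0.05. Higher in the reporter were 2486 (24.6%) and lower 3351 (33.2%), the shares to set beside each list count. Among these, 243 were at least 4-fold higher and 1046 at least 4-fold lower. The groups did not overlap in 6641 genes (65.7%), 2894 of them higher (28.6%) and 3747 lower (37.1%).

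The share of calls that were higher was 42.6% and it moved with the scaling, since the median log2 fold change over all genes was -0.14 as scaled, 0.09 on deposited RPKM, 0.15 after quantile normalization and -0.35 with a factor from genes of at least 20 RPKM. The corresponding shares were 54.5%, 54.8% and 31.7%. Fold changes below are to be read against that median. They are on the log2(scaled RPKM + 1) scale, which understates the change of low genes.

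Gata3 (chr2:9857078-9878600, mm10), the transcription factor that sets Th2 identity and whose reporter was used in the sort, stood at 367, 488 and 472 in the reporter libraries and at 56.5, 65.4 and 54.2 in the OTII libraries (log2 fold change 2.88, SE 0.13, adjusted p = 2.76e-06). The lowest reporter library was above the highest OTII library. YFP marks Gata3 expression and was used in the sort. A higher Gata3 level is therefore not independent of how the cells were chosen. Il4 (chr11:53612461-53618665), the cytokine gene that feeds back on Th2 differentiation and drives IgE, was at 356.5, 566 and 636 against 44.6, 52.8 and 43.5 (log2 fold change 3.40, SE 0.21). Il5 (chr11:53720794-53725103), whose product matures eosinophils, was at 113, 132 and 282 against 0.823, 1.38 and 1.36 (log2 fold change 6.23, SE 0.33, adjusted p = 4.43e-06). Il13 (chr11:53631323-53634702), which drives mucus and airway reactivity, was at 63.2, 137 and 107 against 6.01, 17.1 and 7.95 (log2 fold change 3.24, SE 0.39). None of the 3 cytokine genes overlapped between the groups, as 28.6% of all genes tested did not with the reporter higher. Il5 was the one nearest to absence in OTII cells.

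Of 21 tested members of the Th2 list, 13 were higher in the reporter, Gata3 among them, and 4 were lower. The median log2 fold change was 2.49. The alarmin receptor genes were among the higher members. Il1rl1 (chr1:40439629-40465414), the IL-33 receptor, was at 40.5, 43.2 and 46.4 against 1.09, 1.47 and 1.98 (log2 fold change 4.15). Il17rb (chr14:29996168-30008896), the IL-25 receptor, was at 109, 157 and 127 against 5.90, 4.85 and 5.06 (log2 fold change 4.38). Neither receptor gene overlapped between the groups, which held with the reporter higher for 28.6% of all genes tested.

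Areg, an epidermal growth factor receptor ligand, was at 58.0, 108 and 97.7 against 0.758, 1.87 and 1.16 (log2 fold change 5.28). Il10, an anti-inflammatory cytokine gene, was at 260, 390 and 429 against 8.81, 18.8 and 10.2 (log2 fold change 4.77). Pparg, a lipid-sensing nuclear receptor of tissue Th2 cells, was at 62.3, 64.8 and 55.9 against 6.64, 8.85 and 8.44 (log2 fold change 2.79). Ccr8, Batf, Plac8 and Il3 completed the higher members, with log2 fold changes of 3.12, 1.52, 2.49 and 2.00.

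The 4 lower members were a chemokine receptor, a pair of transcription factors and a cytokine of the TNF family. Ccr4, a skin and lung homing receptor common on Th2 cells, was at 2.03, 2.36 and 5.96 against 35.5, 42.6 and 42.4 (log2 fold change -3.31, SE 0.32). Maf, which activates Il4, was at 21.2, 23.7 and 26.5 against 91.7, 86.5 and 79.7 (log2 fold change -1.81). Irf4, a factor needed for Th2 differentiation, was at 9.89, 6.69 and 8.55 against 53.4, 61.2 and 59.0 (log2 fold change -2.66). Tnfsf11, the RANK ligand, had a log2 fold change of -2.46. All 4 were lower in each reporter library than in any OTII library, as were 37.1% of all genes tested.

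Of the remaining members, Stat6, which carries the IL-4 signal, stood at 74.2, 87.6 and 82.1 against 77.4, 76.6 and 77.2 (adjusted p = 0.560), and Il4ra, Epas1 and Nfil3 did not pass either. Il9, Il24, Csf2, Ptgdr2 and Bhlhe41 were below the RPKM minimum.

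**Figure D2:**
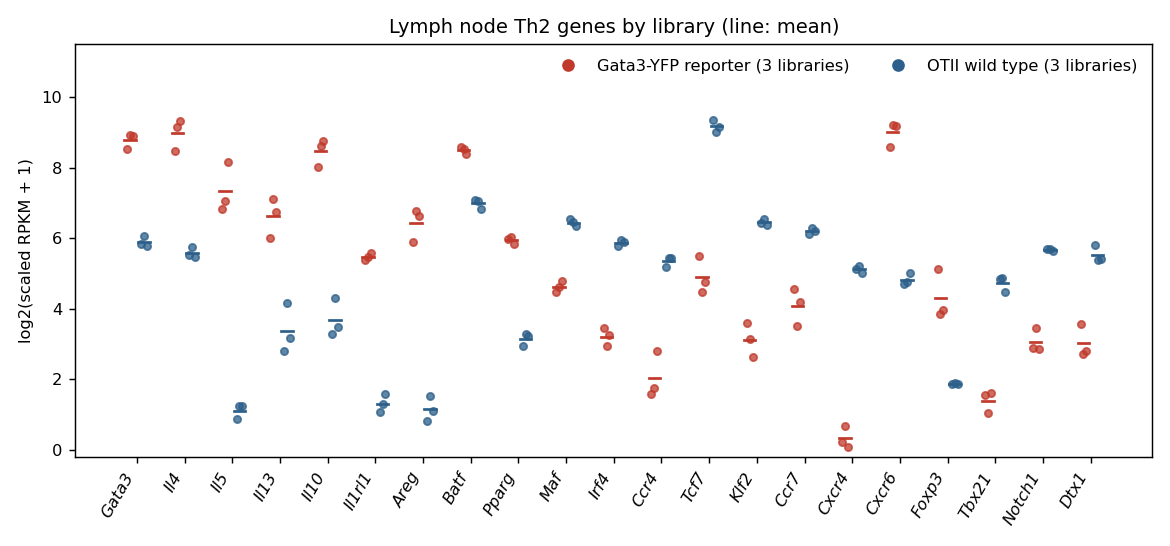
Log2(scaled RPKM + 1) of Th2, naive cell, homing and Notch genes in each lymph node library. Each point is a library, red for the 3 reporter and blue for the 3 OTII wild type libraries, and each line is a group mean. Il5 stood at 113 to 282 in the reporter and at 0.823 to 1.38 in OTII cells, while Tcf7 stood at 21.4 to 43.7 and 515 to 650.

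Il4, Il13 and Il5 lie on chromosome 11 within 1 locus, and Il1rl1 on chromosome 1, so their upstream sequences are given as those of the genes that mark the type 2 difference. Shown are the 250 bases before the start of the transcript that was measured, from RefSeq on build GRCm38.p6, 5′ to 3′ on the gene's strand. Capitals mark the core GATA on either strand (GATA or TATC), the letters that Gata3 and other GATA factors read.
Il4, chr11:53618666-53618915, minus strand: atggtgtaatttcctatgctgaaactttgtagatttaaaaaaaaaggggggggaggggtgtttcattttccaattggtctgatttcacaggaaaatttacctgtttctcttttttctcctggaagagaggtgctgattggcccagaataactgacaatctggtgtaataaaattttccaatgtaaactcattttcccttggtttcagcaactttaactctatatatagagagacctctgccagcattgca
Il13, chr11:53634703-53634952, minus strand: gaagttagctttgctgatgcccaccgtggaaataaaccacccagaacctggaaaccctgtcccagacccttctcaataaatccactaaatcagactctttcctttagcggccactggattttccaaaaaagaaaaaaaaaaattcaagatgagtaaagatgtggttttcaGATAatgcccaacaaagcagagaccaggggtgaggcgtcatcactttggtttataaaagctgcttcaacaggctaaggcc
Il5, chr11:53720544-53720793, plus strand: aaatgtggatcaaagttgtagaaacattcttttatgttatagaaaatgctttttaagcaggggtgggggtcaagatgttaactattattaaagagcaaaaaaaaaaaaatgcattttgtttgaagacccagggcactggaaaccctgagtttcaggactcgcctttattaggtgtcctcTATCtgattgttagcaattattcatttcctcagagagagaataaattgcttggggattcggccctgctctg
Il1rl1, chr1:40439379-40439628, plus strand: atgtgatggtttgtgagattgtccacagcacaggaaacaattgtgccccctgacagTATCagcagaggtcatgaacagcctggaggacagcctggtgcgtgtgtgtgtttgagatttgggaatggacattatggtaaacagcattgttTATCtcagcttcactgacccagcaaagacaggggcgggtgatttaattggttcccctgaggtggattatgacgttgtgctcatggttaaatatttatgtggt
The letters occurred 1 time before Il13, 1 time before Il5, 2 times before Il1rl1 and 0 times before Il4. Of all 32851 RefSeq windows of 250 bases, 53.6% held them, so a match describes the window and marks no site.

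The 10 highest fold changes under the rule for named genes were those of Hdc, Klrg1, Mcpt8, Calca, Nmur1, Il5, Il1r2, Gcg, Areg and Cd200r3. Hdc (chr2:126593660-126618678), the histamine-forming enzyme, was at 471, 470 and 811 against 2.11, 2.56 and 1.92 (log2 fold change 7.47, SE 0.22, adjusted p = 5.86e-07). Klrg1 (chr6:122270597-122282833), an inhibitory receptor of mature effector cells, was at 203, 340 and 270 against 0.633, 0.833 and 0.959 (log2 fold change 7.21). Mcpt8 (chr14:56082164-56085197), a basophil protease, was at 126, 154 and 154 and was listed at 0 in all 3 OTII libraries, at least 779-fold higher against a floor of 3 reads per library. Neither Hdc nor Mcpt8 came near the reporter level in any OTII library.

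Calca, which encodes calcitonin gene-related peptide, was at 68.4, 173 and 166 against 0.0661, 0.564 and 0.221 (log2 fold change 6.64). Nmur1 (chr1:86386325-86388141), the neuromedin U receptor, was at 134, 170 and 143 against 0.942, 0.768 and 1.15 (log2 fold change 6.26). Il1r2, the decoy IL-1 receptor, was at 138, 147 and 202 against 0.987, 1.77 and 1.41 (log2 fold change 6.09). Cd200r3, an activating receptor of basophils and mast cells, had a log2 fold change of 5.15. Gcg, the glucagon precursor gene, stood apart from these, since reporter replicate 3 held 7.02 against 127 and 117 in the other reporter libraries and 0, 0 and 0.134 in OTII cells (log2 fold change 5.57, SE 0.95), and its call was lost in limma voom on the reads (adjusted p = 0.0728).

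Genes of naive and central memory T cells were lower. Of 15 tested members, 11 were lower in the reporter and 1 higher, with a median log2 fold change of -2.12. Tcf7 (chr11:52252283-52282595), the factor that maintains naive and stem-like T cells, was at 43.7, 21.4 and 26.0 against 650, 515 and 565 (log2 fold change -4.26, SE 0.24, adjusted p = 5.17e-06). Satb1, a chromatin organizer of developing and naive T cells, was at 12.4, 6.66 and 6.36 against 91.8, 106 and 112 (log2 fold change -3.51). Actn1, an actin crosslinker, was at 0.733, 0.0150 and 0 against 50.7, 32.0 and 35.8 (log2 fold change -5.04). In none of these did a reporter library reach the OTII range, and the same held for 37.1% of all genes tested.

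Lef1, Foxo1, Klf3, Bach2 and Igfbp4 were lower as well, with log2 fold changes of -2.16, -3.31, -2.09, -1.54 and -4.54. With centring by length Bach2 was at -0.12 and did not pass (adjusted p = 0.744). Il7r, the IL-7 receptor, was the exception, at 56.7, 44.6 and 54.6 against 10.8, 18.9 and 22.5 (log2 fold change 1.58, SE 0.25, adjusted p = 0.000941).

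Of 11 tested members of the egress and retention list, 6 were lower and 3 higher, with a median of -1.15. Klf2 (chr8:72319062-72321654), which activates S1pr1, was at 11.1, 7.78 and 5.17 against 85.4, 91.4 and 82.2 (log2 fold change -3.33). S1pr1 (chr3:115710433-115715055), the sphingosine 1-phosphate receptor that guides cells out of the node, was at 38.5, 25.1 and 24.5 against 68.5, 61.9 and 65.3 (log2 fold change -1.15, SE 0.18, adjusted p = 0.000801). Ccr7 (chr11:99144199-99155077), which holds cells in the T cell zone, was at 22.5, 10.4 and 17.2 against 68.2, 77.8 and 73.4 (log2 fold change -2.12), and its call was lost when all 17 libraries shared 1 fit (adjusted p = 0.0643). Neither S1pr1 nor Ccr7 overlapped between the groups, which held with the reporter lower for 37.1% of all genes tested.

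Cxcr4 (chr1:128588199-128592299), the receptor for the stromal chemokine CXCL12, was near absence at 0.167, 0.604 and 0.0606 against 33.7, 36.3 and 31.3 (log2 fold change -4.79). Gnai2, the G protein subunit through which these receptors signal, was at 57.9, 61.1 and 58.7 against 472, 489 and 442 (log2 fold change -2.96, SE 0.08). Arrb2, an arrestin that switches them off, had a log2 fold change of -1.47. Cd69, which pulls S1pr1 off the surface, was higher at 97.6, 61.4 and 77.1 against 17.2, 28.7 and 32.2 (log2 fold change 1.58). Gpr183 and S1pr4 were the other 2 higher members, and their calls were both lost without OTII replicate 3 (adjusted p = 0.0662 and 0.0584), as was that of Gpr183 without OTII replicate 2.

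Of 20 tested genes of homing and adhesion, 12 were higher and 5 lower, with a median of 0.90. Cxcr6 (chr9:123806477-123811754), a receptor of lung-resident T cells, was at 384, 593 and 578 against 25.1, 26.2 and 31.2 (log2 fold change 4.17, SE 0.18). Cx3cr1, the fractalkine receptor of effector cells, was at 27.3, 33.3 and 41.9 against 0.336, 0.511 and 0.231 (log2 fold change 4.68). Gcnt1, a glycosyltransferase that builds selectin ligands, was at 37.4, 50.6 and 44.2 against 0.834, 1.01 and 0.895 (log2 fold change 4.55). In each of the 3, every reporter library was above every OTII library, as in 28.6% of all genes tested.

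The inflammatory chemokine receptors Ccr1, Ccr2 and Ccr3 were also higher, with log2 fold changes of 4.01, 2.63 and 2.93. Fut7, which makes selectin ligands together with Gcnt1, and Itgae, the integrin of epithelial retention, had log2 fold changes of 2.33 and 2.56. The lower members were Cxcr3, the receptor of Th1 cells (-3.49), Cxcr5, the receptor for B cell follicles (-2.04), Itga1, Itga4 and Cd44. With fold changes centred among transcripts of like length, Itga1, Itga4 and Cd44 were at -0.26, 0.17 and 0.26 and did not pass, and Cxcr5 was at -1.78 with an adjusted p of 0.0553. The call of Cxcr5 was also lost without OTII replicate 1 or 3 or reporter replicate 2 or 3 (adjusted p = 0.0977, 0.0647, 0.0738 and 0.0582).

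Th1 genes and cytotoxic genes did not move as 1 group, with 7 of 17 tested members higher, 8 lower and a median of -0.27. The lower ones held the Th1 regulators. Tbx21 (chr11:97098007-97115331), the Th1 master factor, was at 1.92, 1.06 and 2.07 against 27.5, 28.4 and 21.3 (log2 fold change -3.33, SE 0.24), and Il12rb2, the IL-12 receptor chain, was at 0 in all 3 reporter libraries against 5.49, 3.93 and 3.96, at least 51.7-fold lower. Ifng was at 10.9, 5.11 and 4.18 against 7.04, 4.78 and 4.08, a difference that did not pass (0.22, adjusted p = 0.611). Of 3 tested Th17 genes, Rora was higher and the other 2 did not pass.

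The 7 higher members were Il18rap, Ccl3, Ccl4, Gzmb, Nkg7, Klrg1 and Fasl. Nkg7, a granule protein of cytotoxic cells, was at 652, 1183 and 1024 against 96.2, 79.3 and 51.2 (log2 fold change 3.64). Gzmb, granzyme B, was at 373, 628 and 661 against 25.4, 149 and 193 (log2 fold change 2.55, SE 0.67, adjusted p = 0.0116), and the call was lost without reporter replicate 3 (adjusted p = 0.0502). Gzma and Gzmc, other granzymes, were lower, with log2 fold changes of -3.10 and -2.46. Ccl4 and Fasl had log2 fold changes of 3.59 and 2.96.

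The follicular helper program was mostly lower, with 10 of 14 tested members lower, 4 higher and a median of -1.12. Bcl6 (chr16:23965052-23988612), its master factor, was at 7.01, 8.80 and 4.43 against 25.1, 16.7 and 18.1 (log2 fold change -1.45, SE 0.27). Il21, the cytokine that helps B cells, and Slamf6, an adhesion receptor of T and B cell contact, were lower by log2 fold changes of -2.12 and -2.01. Without OTII replicate 1 the lower members were 6 in place of 10. Pdcd1, which encodes PD-1, was higher at 289, 502 and 462 against 53.3, 36.2 and 35.4 (log2 fold change 3.28), as were Tox (1.85), Icos (0.70) and Angptl2 (1.96).

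Regulatory T cell genes were higher, with 14 of 17 tested members higher, 0 lower and a median of 1.11. Foxp3 (chrX:7579676-7595243), the lineage factor, was at 33.8, 13.5 and 14.6 against 2.63, 2.71 and 2.67 (log2 fold change 2.44, SE 0.34, adjusted p = 0.000459), and reporter replicate 1 held the highest level. Tnfrsf18, which encodes GITR, was at 638, 525 and 698 against 114, 136 and 113 (log2 fold change 2.34). Capg, an actin-capping protein, was at 664, 822 and 837 against 141, 192 and 150 (log2 fold change 2.26). The 3 members that did not pass were Nrp1, Izumo1r and Lrrc32, and leaving out 1 library gave 11 to 14 higher. Effector T cells also express several of these genes when activated, among them Tnfrsf4, Tnfrsf9, Il2ra and Ctla4.

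Inhibitory receptors split by gene, 5 of 8 tested members higher and 3 lower (median 0.80). Beside Pdcd1, Lag3 was at 742, 1137 and 1148 against 360, 381 and 329 (log2 fold change 1.47), Havcr2 (TIM-3) had a log2 fold change of 2.06, and Ctla4 and Tigit 1.01 and 0.60. Btla, Cd160 and Cd200 were lower, with log2 fold changes of -1.22, -1.28 and -1.02, and the call of Btla was lost when all 17 libraries shared 1 fit (adjusted p = 0.112).

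**Figure D3:**
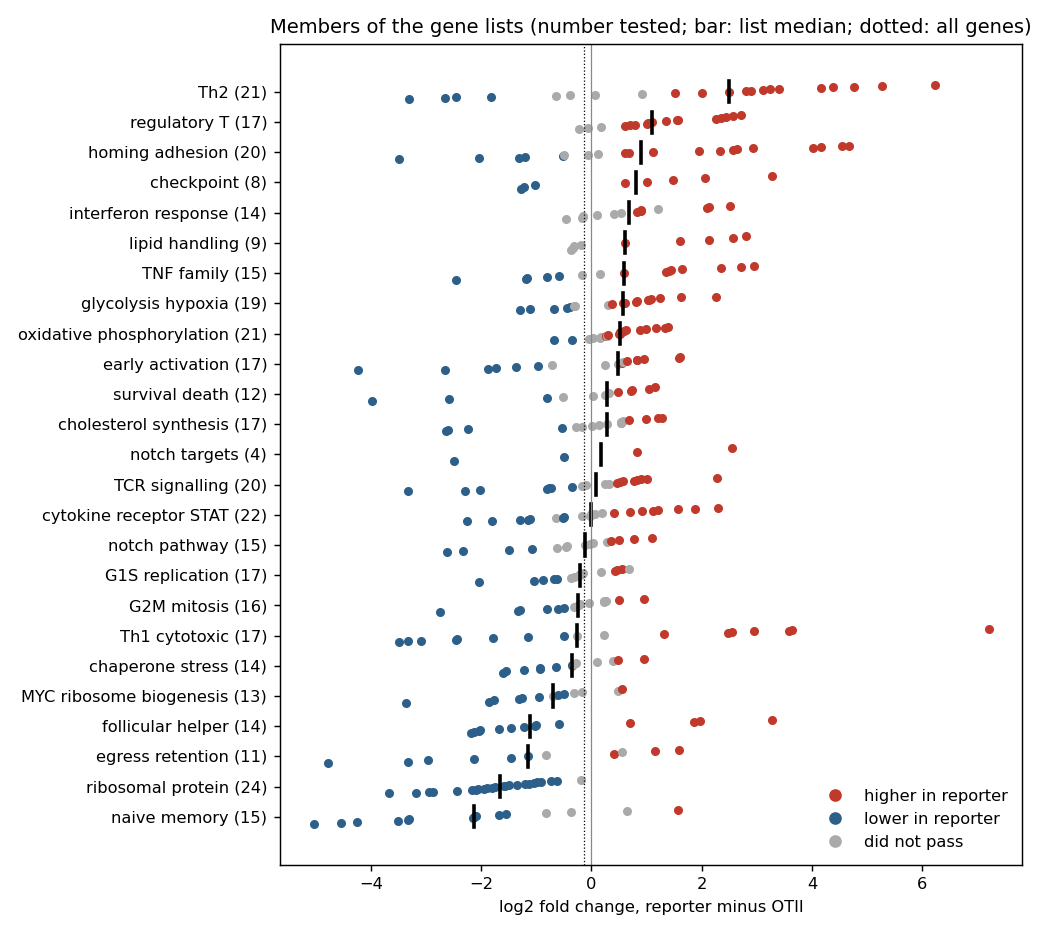
Log2 fold change (reporter minus OTII) of every tested member of the program lists with at least 4 tested members, lists ordered by their median. Red points were higher and blue points lower past the limma threshold, grey points did not pass, black bars are list medians and the dotted line is the median of all genes (-0.14). The Th2 list stands at the top with a median of 2.49 and the naive and memory list at the bottom with -2.12.

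The series was built around Notch, a receptor family whose cleaved inner part acts on genes with Rbpj and Maml coactivators. Notch1 (chr2:26457902-26503822) was at 6.39, 10 and 6.22 in the reporter libraries against 51.3, 51.0 and 48.4 in the OTII libraries (log2 fold change -2.61, SE 0.19, adjusted p = 1.79e-05). Notch2 (chr3:98013538-98150367) was at 4.80, 6.19 and 6.64 against 8.42, 8.50 and 7.88, a difference that did not pass (-0.44, adjusted p = 0.0994). The Notch2 value reversed when fold changes were centred among transcripts of like length (1.02, adjusted p = 0.00350), where Notch1 stayed lower (-1.14). Notch3 and Notch4 were below the RPKM minimum.

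Of 15 tested pathway members, 4 were higher, 4 lower and 7 did not pass (median -0.12). The shares over all genes were 24.6% higher and 33.2% lower. The gamma-secretase genes Psen2 and Ncstn, whose complex cleaves the receptor, had log2 fold changes of 1.10 and 0.50, while its subunit Aph1a was at 5.14, 7.91 and 5.17 against 18.6, 20.6 and 16.9 (log2 fold change -1.50). The coactivator Maml1 was lower by a log2 fold change of -2.34. Other scalings gave 2 to 5 higher and 4 to 7 lower, and centring by length gave 7 higher and 3 lower, so no direction was given to the pathway.

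Of 4 tested Notch target genes, 2 were higher and 2 lower (median 0.17). Dtx1 (chr5:120680264-120711669), an E3 ligase, was at 10.9, 5.54 and 6.06 against 55.4, 40.7 and 41.4 (log2 fold change -2.50, SE 0.25). The other lower gene was Myc, whose call was lost in 14 of the 20 alternatives, among them 5 of the 6 libraries left out in turn. Ccnd3, a cyclin, was at 268, 241 and 207 against 131, 147 and 121 (log2 fold change 0.83), and Gzmb was higher, as above. Hes1 was below the minimum, with 3, 14 and 0 reads in the reporter libraries and 1, 1 and 0 in the OTII libraries, and Hes5, Hey1, Nrarp and Ptcra were below it too.

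Genes of T cell receptor signalling went both ways, 8 of 20 tested members higher and 7 lower (median 0.08). The shares over all genes were 24.6% higher and 33.2% lower. Cd6, an adhesion co-receptor, was at 315, 422 and 267 against 73.9, 67.3 and 60.5 (log2 fold change 2.28), and Cd3g, a receptor subunit, was at 1000, 1153 and 1217 against 629, 560 and 605 (log2 fold change 0.91). Fyn, a Src family kinase, was at 10.5, 17.1 and 21.7 against 186, 151 and 166 (log2 fold change -3.32), and Plcg1 and Nfatc2 had log2 fold changes of -2.02 and -2.29. Centred by length, 11 were higher and 4 lower.

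Cytokine receptor and STAT genes went both ways too, 8 of 22 tested members higher and 7 lower (median -0.0072). The shares over all genes were 24.6% higher and 33.2% lower. Il2rg, the common gamma chain, was at 1316, 1687 and 1602 against 316, 311 and 307 (log2 fold change 2.29, SE 0.11), and Il2rb, its partner in the IL-2 receptor, was at 159, 120 and 133 against 309, 313 and 289 (log2 fold change -1.15). Il9r, Il10ra and Ifngr1 were higher, with log2 fold changes of 1.87, 1.13 and 1.21. Stat5a and Stat5b, which carry IL-2 family signals, had log2 fold changes of -1.29 and -1.80. On deposited RPKM, and centred by length, 4 members were lower.

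Among early activation genes, 7 of 17 tested members were higher and 6 lower (median 0.47). The shares over all genes were 24.6% higher and 33.2% lower. Jund was at 2.65, 4.44 and 3.37 against 92.9, 86.5 and 68.8 (log2 fold change -4.23, SE 0.20), while its AP-1 relatives Junb and Jun were higher, with log2 fold changes of 0.83 and 0.95. Dusp1, a phosphatase that ends MAP kinase signals, had a log2 fold change of 1.60, and Zfp36 and Tnfaip3, which restrain inflammatory transcripts and NF-kB, had -1.37 and -1.88. In the TNF family, 8 of 15 tested members were higher (median 0.59), such as Tnfrsf9 (4-1BB, 2.71) and Tnfsf8 (1.64). The 5 lower members, among them Ltb and Fas, became 1 to 3 without reporter replicate 2 or 3 or without any 1 OTII library, and 1 on deposited RPKM.

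Mki67 (chr7:135689788-135716379), a marker of cycling cells, was at 26.2, 16.5 and 16.1 against 123, 143 and 137 (log2 fold change -2.75, SE 0.19, and -1.27 with centring by length). Top2a and Tpx2 were lower too, with log2 fold changes of -1.33 and -0.81, and both calls were lost with centring by length (adjusted p = 0.424 and 0.0851). Of 16 tested mitotic genes, 6 were lower, 2 higher and 8, among them Aurkb and Ccnb2, did not pass (median -0.25), where 33.2% of all genes tested were lower. The lower ones were 3 on deposited RPKM and 1 when centred by length. Of 17 tested replication genes, 5 were lower and 3 higher (median -0.21), with Pcna, the replication clamp, at 85.7, 75.3 and 72.0 against 140, 148 and 144 (log2 fold change -0.89). The lower replication genes were 9 without reporter replicate 1 and 3 without any 1 OTII library.

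Ribosomal protein genes were lower nearly throughout. Of 24 tested members, 23 were lower, 0 were higher and Rpl5 did not pass, with a median of -1.66, and 22 to 23 were lower with any 1 library left out. Rplp1 (chr9:61913283-61914510), a subunit of the ribosomal stalk, was at 211, 216 and 201 against 2899, 2771 and 2429 (log2 fold change -3.68, SE 0.09, adjusted p = 5.11e-07). Rpsa and Rpl8 had log2 fold changes of -3.18 and -2.88. The summed level of the list was 3877 to 4769 in the reporter libraries and 16118 to 17340 in the OTII libraries, a gap far beyond the spread of either group.

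Transcripts of these genes are short, with a median of 778 bases, and centring by length kept 23 lower with a median of -1.95. Ribosomal protein genes have many near-identical pseudogene copies, and how reads that match several places were counted is not given in the sources used here. Eef1a1, the elongation factor that brings tRNA to the ribosome, was at 756, 643 and 644 against 3236, 3527 and 3557 (log2 fold change -2.34). In the list of MYC and ribosome biogenesis genes, 8 of 13 tested members were lower and 1 higher (median -0.69). Odc1, the first enzyme of polyamine synthesis, was at 1.53, 1.95 and 4.04 against 28.2, 38.3 and 35.02 (log2 fold change -3.37), and Fbl and Ddx21, of the nucleolus, had -1.86 and -1.77.

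Mir6236 (chr9:110281287-110281409), listed as a short transcript, was at 7.03, 10.4 and 9.87 against 3054, 3154 and 3346 (log2 fold change -8.32, SE 0.14). On this log2 scale it was the widest gap among the genes named. It is a 123-base feature, and reads of longer RNA that match it cannot be told apart from it.

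Of 21 tested oxidative phosphorylation genes, 14 were higher and 2 lower with a median of 0.52. Sdhb, of respiratory complex II, was at 325, 340 and 365 against 128, 139 and 138 (log2 fold change 1.34), and Uqcrc1, of complex III, had a log2 fold change of 1.17. Of 19 tested glycolysis and hypoxia genes, 11 were higher and 5 lower (median 0.58). Aldoa and Ldha, which act in the middle and at the end of glycolysis, had log2 fold changes of 1.63 and 1.05, while Gpi1 and the hypoxia gene Egln3 had -0.45 and -1.30. The call of Gpi1 was lost on deposited RPKM (adjusted p = 0.156). The glycolysis count was 7 higher without OTII replicate 1 or 3, and 2 lower without OTII replicate 2.

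Among lipid-handling genes, 5 of 9 tested members were higher and 0 lower (median 0.61), and 2 were lower without reporter replicate 3. Hilpda, a lipid droplet protein, was at 84.3, 112 and 91.9 against 13.1, 18.4 and 14.8 (log2 fold change 2.56), and Plin2 and Dgat1, of the same droplets, had 2.13 and 1.61. Of the genes of fatty acid synthesis, Fasn was at 3.55, 4.06 and 4.76 against 26.2, 33.0 and 30.7 (log2 fold change -2.60), and the desaturase Scd2 had -2.24. Of 17 tested cholesterol and fatty acid synthesis genes, 4 were higher and 4 lower (median 0.28), where 24.6% of all genes were higher and 33.2% lower. On deposited RPKM, after quantile normalization or centred by length, 9 were higher.

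Interferon response genes were higher in 6 of 14 tested members and lower in 0 (median 0.67). Rtp4 was at 20.6, 12.8 and 6.31 against 2.48, 0.470 and 1.29 (log2 fold change 2.52), and Ifi47, a guanosine triphosphatase, had 0.82. The calls of Irf7 and Ifit1 were each lost with 4 of the 6 libraries left out in turn. Of 14 tested chaperone genes, 7 were lower and 2 higher (median -0.35), with Calr, an endoplasmic reticulum chaperone, at 222, 209 and 200 against 606, 699 and 624 (log2 fold change -1.61).

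Survival genes were higher in 5 of 12 tested members and lower in 3 (median 0.28). The shares over all genes were 24.6% higher and 33.2% lower. Mcl1, a short-lived survival protein, was at 14.2, 14.3 and 14.6 against 95.8, 83.5 and 95.1 (log2 fold change -2.59), and Bak1, a death effector, was at 2.63, 4.15 and 4.58 against 75.9, 78.5 and 67.3 (log2 fold change -3.99). Bcl2a1b, a survival gene that has near-identical copies, and Bax were higher, with log2 fold changes of 1.04 and 0.74.

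The 10 lowest fold changes under the rule for named genes were those of Actn1 and Cxcr4, given above, and of 8 other genes. That rule leaves out small RNAs such as Mir6236, which was lower still. Tgfb1 (chr7:25687002-25705077), the cytokine gene, was at 1.19, 1.81 and 0.859 against 106, 107 and 90.4 (log2 fold change -5.50, SE 0.20). Chmp4b, of the membrane-cutting ESCRT complex, and the phosphatase subunits Ppp6r1 and Ppp2cb had log2 fold changes of -5.19, -5.13 and -4.80. Gsk3a, a kinase, Khsrp, an RNA-binding protein, Itpkb, an inositol kinase, and Plekho1, a signalling adaptor, had -5.03, -4.88, -4.79 and -4.78. Among these 8 genes the highest reporter value was 6.76 (Chmp4b) and the lowest OTII value 37.7 (Ppp2cb).

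Genes listed at 0 in all 3 reporter libraries and at 1 or more in all OTII libraries numbered 57, and the reverse set held 10. Tnfrsf1a, the TNF receptor, held 387, 451 and 481 reads in the OTII libraries and 0 in each reporter library, at least 138-fold lower against a floor of 3 reads per library. Epop, Frat2 and Bspry were at least 109.5-fold, 80.0-fold and 47.4-fold lower. At the other end, the most abundant genes that were higher were Tmsb4x, Actb, Pfn1, B2m and H2-D1, of the actin skeleton and MHC class I. Actb was at 7243, 7090 and 7033 against 2305, 2271 and 2007 (log2 fold change 1.70, SE 0.09). Tmsb4x had a log2 fold change of 1.10, and its call was lost after quantile normalization, which left no difference between the groups. That method gives the same value to a gene of the same rank in every library, so it cannot test such a gene.

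Fold changes ran with transcript length. In 5 groups of genes from short to long, with median lengths of 897.5, 1748, 2548, 3565 and 5559 bases, the median log2 fold change was 0.29, 0.24, -0.021, -0.34 and -0.99. The share of genes lower in the reporter was 20.4% in the shortest group and 61.8% in the longest. Across genes the rank correlation with length was -0.35. In 5 groups by GC content the median was 0.0032 at the lowest GC and -0.32 at the highest. Among the 10 lowest named folds the median length was 2206 bases, and among the 10 highest 1243.5, with 2548 for all genes.

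With fold changes centred within 20 bins of length, 2842 genes were higher and 2427 lower. Of the called genes above, Gata3, Il4, Il5, Il13 and Il1rl1 had length-centred log2 fold changes of 3.18, 3.60, 5.87, 2.83 and 5.24. Tcf7, Klf2 and Cxcr4 had -3.97, -3.57 and -5.13. Some fold changes, taken off the log2 scale, shrank by over 1.5 times with centring though the genes still passed the threshold. Among these genes were Notch1 and Mki67, with log2 values given above. Others were Irf4 (-1.88), Satb1 (-2.42), Foxo1 (-2.22), Maml1 (-1.28), Plcg1 (-1.23), Nfatc2 (-1.21), Stat5b (-0.66), Tnfaip3 (-1.09), Ddx21 (-0.99), Fasn (-1.14), Scd2 (-1.10) and Itpkb (-3.71). What the length dependence stands for was not tested.

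**Figure D4:**
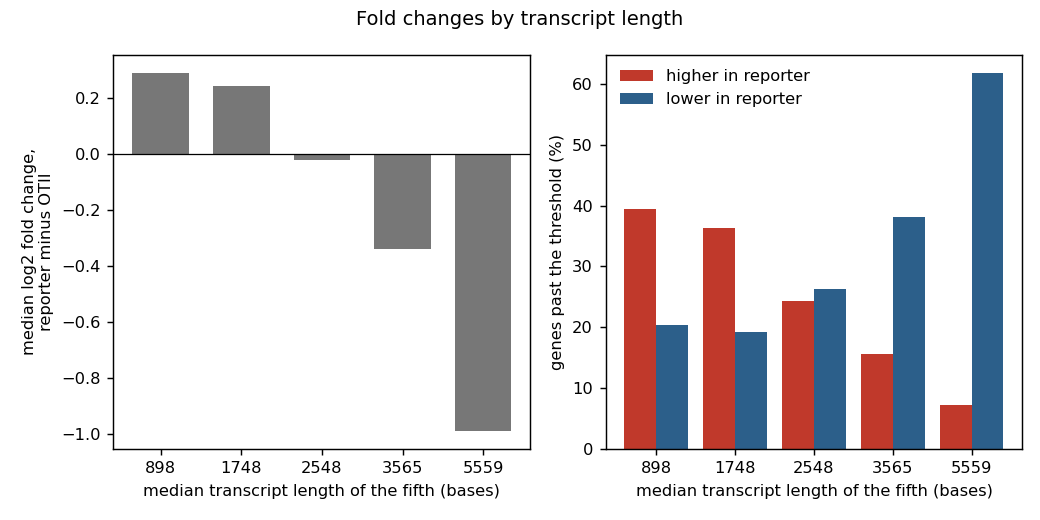
Left, median log2 fold change (reporter minus OTII) of 5 equal groups of genes ordered by transcript length, with the median length in bases on the axis. Right, the percentage of each group that passed the limma threshold in either direction. The median goes from 0.29 in the shortest group to -0.99 in the longest.

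The other 11 libraries gave values that the comparison did not use: 3 of airway Th2 cells of the reporter line and 8 of OTII cells (4 knockout-labelled for Notch1/2 from the node, and 4 grown in culture, where naive spleen cells became Th2 cells under receptor stimulation, IL-4 and antibodies to interferon gamma and IL-12/23). Among genes called higher in the node, all 3 airway libraries stood above all 8 of these OTII libraries in 52.5%, against 16.9% of all genes tested. Among genes called lower, they stood below all 8 in 73.0%, against 33.0%. Across the 10106 genes the node fold change correlated at r = 0.746 with airway reporter minus cultured wild type OTII, a contrast that shares no library with it but shares the lines and the kinds of tables.

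Most Th2 genes separated the airway reporter libraries from these OTII libraries, which differ in tissue or culture as well as in line. Gata3 was at 445, 511 and 377 in the airway and at 38.0 to 93.8 in the 8 OTII libraries, and 12 of the 13 higher members of the Th2 list separated in the same direction. Of the 4 lower members Ccr4 and Irf4 did so, and Maf and Tnfsf11 did not. Il5 was at 136, 234 and 123 against at most 2.86, and Il1rl1 at 219, 195 and 234 against at most 1.06. Of the ribosomal protein genes, all 23 lower ones were lower in the airway libraries than in every other OTII library, with Rplp1 at 164, 154 and 208 against 1435 to 4061. Of the naive and memory genes 9 of 11 did so, Tcf7 among them at 12.3, 10.4 and 18.6 against 177 to 692. The proliferation gene Mki67 did so too, at 8.58, 2.36 and 8.02 in the airway and at 113 to 201 in the other OTII libraries.

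Other genes did not separate the reporter from the OTII libraries throughout. Notch1 was at 3.29, 12.6 and 8.67 in the airway libraries, inside the range of the other OTII libraries (1.14 to 31.7). That range includes the knockout-labelled libraries, at 8.63 to 13.9 in the node and at 4.55 and 1.14 in culture. In wild type culture Notch1 was at 28.3 and 31.7, above every reporter library. Dtx1 was lower in the airway than in every other OTII library, at 0 against 0.0144 to 1.30. The node reporter libraries, at 5.54 to 10.9, were above those OTII libraries, and the wild type OTII node libraries were the highest, at 40.7 to 55.4. Ccr7 ranged from 0 to 55.2 in the airway and from 26.4 to 165 in the other OTII libraries. The node knockout-labelled ones held 26.4 to 30.6, and wild type culture held 65.5 and 115. Plekho1 was at 9.16 to 14.5 in culture, within the airway range of 5.19 to 15.1. Some list medians changed sign in airway minus cultured wild type OTII. The follicular helper median was -1.12 in the node and 1.45 there, and 2 of the 10 lower and all 4 higher genes separated in the same direction. The glycolysis and hypoxia median was 0.58 and -1.34. Of its 11 higher genes 1 separated in the same direction and 3 in the opposite one, and of its 5 lower genes 4 in the same.

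**Figure D5:**
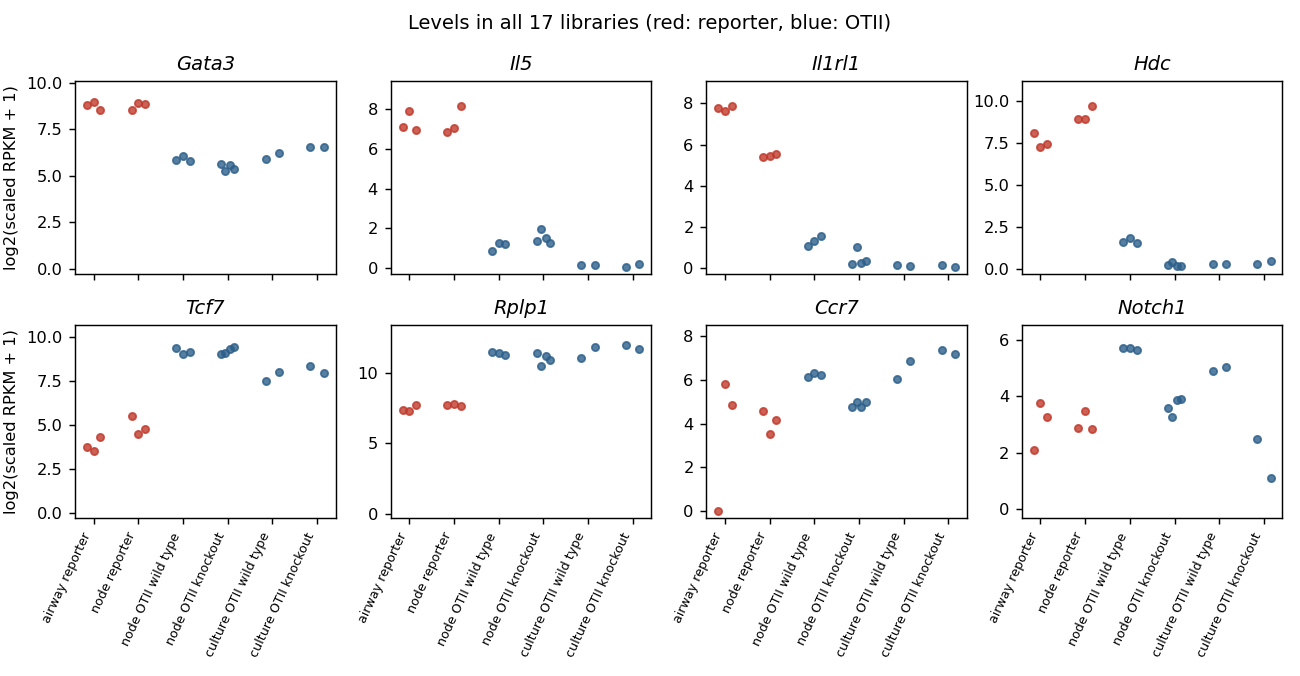
Log2(scaled RPKM + 1) of 8 genes in all 17 libraries by group, red for the reporter line and blue for OTII, 1 point per library. Gata3, Il5, Il1rl1, Hdc, Tcf7 and Rplp1 separate the lines in every group. Ccr7 and Notch1 overlap between the lines only through the knockout-labelled libraries.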

How the data were processed

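The submitters' processing notes name HISAT2 2.0.4, HOMER, DESeq2 and the mm10 build. Each deposited table holds the authors' RPKM of 1 library over 1 RefSeq transcript per gene. Low RPKM values times length were whole multiples of 1 read in 100% of the values checked (tolerance 0.1, below 100 reads), which gave the depth of each library. The values are not counts as deposited, so a count test was only an alternative. A median-of-ratios factor, from the 8070 genes at 1 or more in all 6 libraries, scaled the RPKM of each library, and log2(scaled RPKM + 1) was tested in limma 3.58.1 under R 4.3.3 (two-sided, eBayes with its trend option), with Benjamini-Hochberg adjustment over 10106 genes and a threshold of 0.05. The fit was tested on simulated data.

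The members, the 26 program lists and the 13 marker lists, beside the sex-linked genes, were chosen from general knowledge with earlier results of these data known. Named genes followed a rule: a set of 21 genes of the Th2, Notch and lymph node programs, the 10 highest and 10 lowest called folds without overlap (higher group's mean 5 or above, without predicted genes, small RNAs, histones and pseudogenes), the 3 members with the smallest p of each list with at least 2 called, the 5 most abundant called genes in each direction and the 5 most abundant genes at 0 in the other group. It gave 127 genes. List members given beyond it (among them Il10, Ccr8, Batf, Maf, Ccr4, Lef1, Foxo1, Ccr1, Ccr2, Il21, Gzma, Nfatc2, Stat5a, Dusp1 and Plin2) were chosen after their values were seen. Some genes of the rule and lists are not reported here. Positions are the authors', and upstream sequences came from RefSeq on GRCm38.p6, where all 4 genes shown had a window at the measured start.

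Replicate numbers of the 2 lines were checked for pairing: deviations of same-numbered libraries correlated at -0.039, -0.013 and -0.019, so no block entered. The alternatives were other scalings, pseudocounts and filters, limma voom on the reads, array weights, no trend, all 17 libraries in 1 fit, the block, leaving out each library, and 2 chosen after the data were seen (OTII replicates 2 and 3 averaged, since their column headers share a first number, and centring by transcript length). Replicates differed by more than sampling noise, with a chi-square per degree of freedom of 11.7 to 13.6 between OTII libraries, 45.4 between reporter replicates 2 and 3, and 80.3 and 80.6 between these and reporter replicate 1. That library had the smallest array weight (0.20). GC content was known for 98.2% of the genes.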

Additional observations from a re-analysis of the deposited data

How the results depend on the processing

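The count of genes past the threshold was 5837, with 4694 to 6441 when 1 library was left out and 4775 with OTII replicates 2 and 3 averaged, an alternative chosen after the data were seen, as was centring by length (5269). With the replicate number as a block it was 5596, though the labels do not say that the numbers pair the libraries. The higher and lower counts were 3294 and 2750 on deposited RPKM, 3323 and 2736 after quantile normalization, 1832 and 3945 with a factor from genes of at least 20 RPKM, and 2366 and 3994 of 15125 genes with no filter. All stayed within 1.5 times of the 2486 and 3351 given. Of 123 named genes past the threshold, 113 kept direction and call in every one of the 20 alternatives and 122 with any 1 library left out, and none changed sign. Of the 290 list members past it, 203 and 241 did so, and 11 changed sign in an alternative. Named genes that had not passed changed sign as follows: Notch2 became 0.023 after quantile normalization (log2, adjusted p = 0.926) and 1.02 with centring by length, and Ifng ranged from -0.14 without reporter replicate 1 to 0.46 without reporter replicate 3, and was -0.21 with centring by length. The cause of these moves was not tested. At these read totals, a gene listed at 0 in a library may still hold up to 3 reads, which covers counting error only.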

Other observations

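Genes listed under another transcript in the 2 kinds of tables were left out of the comparison, since their RPKM is not over the same length. Their deposited RPKM, unscaled, is given as values only. Lck, the kinase that starts T cell receptor signals, stood at 1051, 916 and 938 in the reporter libraries and at 552, 473 and 483 in the OTII libraries. Nsg2, a gene of naive T cells, stood at 4.14, 1.10 and 1.67 against 47.8, 29.2 and 39.8. Socs2, a feedback inhibitor of cytokine signals, stood at 18.9, 18.1 and 23.7 against 2.30, 5.28 and 4.40. Bcl2, a survival gene, stood at 3.56, 1.38 and 2.22 against 10.3, 11.4 and 10.8. Tnf stood at 0.0700, 1.30 and 1.76 against 17.03, 13.1 and 13.7, and Egr3, an early activation gene, at 0.0910, 1.94 and 1.16 against 17.6, 16.0 and 16.0. Xist, the transcript of the inactive X chromosome, stood at 13.1, 1.67 and 11.2 against 47.0, 44.9 and 57.0, lowest in reporter replicate 2, the library with Y-linked reads.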
